A study of Mus musculus with 16 samples.

Results

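DNA transposon remnants are the fossil copies of elements that once moved through the genome as DNA. They were taken as every row of the repeat tables whose annotated class is DNA, which gave 197 elements. Of the 1153 repeat elements in the table of knockdown and LacZ control these were 17.1%, and 189 of them stood in all 3 repeat tables. By family name 122 elements belong to hAT, 58 to Tc/Mariner and 17 to smaller or unassigned families. The class comes from the row names and not from measured values.

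DNA transposons move by cut and paste: a transposase binds the inverted repeats at both ends of the element, excises it and inserts it elsewhere. In mouse and other mammals nearly all copies are old and have lost the ability to move. Many are short elements without a transposase gene that were mobilised by the enzyme of a longer relative. Charlie and Tip100 elements belong to the hAT superfamily, and Tigger elements to Tc/Mariner. Elements with the prefix MER occur in both. Old repeats of this kind mostly lie in introns, between genes and in untranslated regions.

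The embryos were 2-cell mouse embryos of a hybrid cross, with DBA fathers and mothers that were F1 of C57BL/6J and CBA/H, incubated in KSOM medium. The knockdown group (6 libraries) came from zygotes injected with dsSuv39h2. Suv39h2 encodes a methyltransferase of lysine 9 of histone H3, a mark of silent chromatin that covers many repeats. The LacZ control group (6 libraries) was injected with dsLacz, named for a bacterial gene that mice lack, and the non-injected group (4 libraries) received nothing. All groups share cross, stage and culture. The design text describes pools of 5 embryos per library, whereas the extraction label says single embryo. The treatment label names Suv39h1 mRNA, wild type or mutant, which no group label mentions. RNA was polyadenylated and prepared with Smart-seq2. In bulk embryos, fewer cells that transcribe an element and less RNA per cell cannot be told apart.

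Only the authors' own comparisons were analysed here, so no value of a single library can be given and the depth of each library is unknown. The p-values measure the spread between these libraries, and nothing in the labels says whether the pools came from separate litters or days. Suv39h2 itself (ENSMUSG00000026646.16; GRCm38 chromosome 2, 3455815 to 3475031) stood at -1.95 ± 0.28 in knockdown over LacZ control in the authors' deposited table (log2 fold change ± standard error; DESeq2 adjusted p = 4.72e-08). Because Smart-seq2 does not record strand, reads from Dclre1c and Gm13184, which overlap it in antisense, could be counted with it.

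The headers of the repeat tables do not say which group is divided by which, and the mean counts settle this. A table of knockdown and non-injected libraries must have a higher mean count than a table of LacZ control and non-injected libraries where an element is higher in knockdown than in LacZ control. Of 71 repeats with a deposited log2 fold change over 0.5 in size and a mean count of 10 or more in all 3 tables, 71 had the sign of the second-named group over the first. The same held for 139 of 139 repeats in knockdown over non-injected and for 36 of 36 in LacZ control over non-injected. Over all 844 repeats with such mean counts, smaller fold changes included, the sign was the same for 94.0%, 87.0% and 78.2% in the 3 comparisons. Among DNA transposons the counts were 6 of 6, 21 of 21 and 6 of 6 past 0.5, and 112, 108 and 90 of 116 in all, so the sign check is weakest for small differences between LacZ control and non-injected. The fold changes are therefore given as knockdown over LacZ control, knockdown over non-injected and LacZ control over non-injected.

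DNA transposon transcripts were scarce. The mean normalized count, the average over libraries after division by size factors and not per length, had a median of 18.6 over the 197 elements in the table of knockdown and LacZ control, against 67.6 over all repeats. Their summed mean counts made up 0.415% of those of all repeats in that table, 0.429% in the table of knockdown and non-injected, and 0.411% in the table of LacZ control and non-injected. In the first of these, a mean count under 1 was listed for 15 elements, 1 to 10 for 62, 10 to 100 for 88 and 100 or more for 32. The signal was uneven, since the 10 elements with the highest mean counts held 53.9% of the class total and the 3 highest held 34.5%. hAT elements contributed 72.0% of that total, Tc/Mariner 27.3% and the rest 0.701%. Mean counts are not divided by the length or number of genomic copies, so they do not rank elements by activity.

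Several of the highest counts belonged to short elements without a transposase gene, such as MER2 and MER5A. The highest mean count was that of RCHARR1, a hAT-Charlie element, at 2318 in the authors' deposited table of knockdown and LacZ control. MER2, a short Tigger relative, followed at 1765, and the hAT-Charlie elements MER5A, MER20, MER5B and MER58B had 1194, 587, 584 and 452 in the authors' deposited table. MER20 is known from regulatory sequences of the placental mammal uterus. After MER2, the Tc/Mariner elements with the highest mean counts were TIGGER17C (354), TIGGER5B (215), TIGGER1 (214) and TIGGER19B (199) in the authors' deposited table. FORDPREFECT led the hAT-Tip100 family at 390, OLDHAT1 was the only hAT-Ac element at 246, BLACKJACK led hAT-Blackjack at 156 and MER53 led the hAT elements without a subfamily at 91.8 in the authors' deposited table. MMAR1, a mouse mariner element, had 168 and LOOPER, a PiggyBac element, 39.3 in the authors' deposited table.

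Several families had low counts. The MULE-MuDR element RICKSHA had a mean count of 3.17, the PIF-Harbinger element CHOMPY-7_CROC 4.76 and the Pogo element MER132 0.171 in the authors' deposited table of knockdown and LacZ control. The median was 26.7 over 67 hAT-Charlie elements, 22.0 over 44 TcMar-Tigger elements, 18.5 over 32 hAT-Tip100 elements and 39.2 over 8 hAT-Blackjack elements. It was 4.11 over 8 TcMar-Tc2 elements, and 3.36 over the 12 elements with no family beyond DNA.

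**Figure D1:**
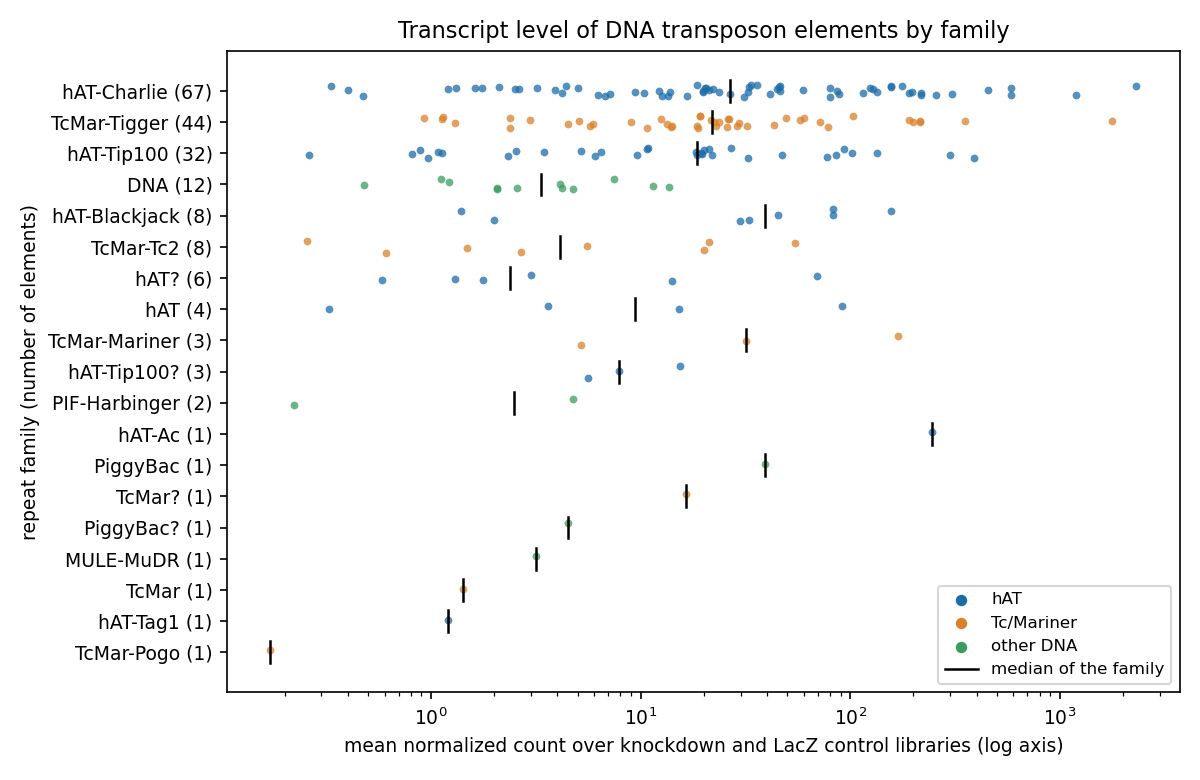
Mean normalized count of each of the 197 DNA transposon elements in the table of knockdown and LacZ control libraries (log axis), by annotated family with the number of elements in brackets. Points are elements, black bars are family medians. hAT-Charlie and TcMar-Tigger each span from about or under 1 to over 1000, while most smaller families stay low.

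Between knockdown and LacZ control, both injected, no DNA transposon was called. An adjusted p was deposited for 119 of the 197 elements, and the 77 elements with a mean count under 10 were among the 78 without one. DESeq2 called 0 of the 119 at an adjusted p under 0.05, beside 0.35% of all repeats with an adjusted p. At an unadjusted p under 0.05 there were 6 elements higher and 2 lower in knockdown, 4.06% of the members, beside 6.69% of all repeats (2.78% higher and 3.91% lower). Adjusted over all repeats, or over genes and repeats together, the deposited p-values gave 0 calls as well.

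The smallest p-value in this comparison belonged to TIGGER19B, at 0.83 ± 0.33 in the authors' deposited table (p = 0.00935, DESeq2 adjusted p = 0.187). ORSL-2B stood at 0.73 ± 0.33 and ARTHUR1 at 0.66 ± 0.31, both hAT-Tip100 elements, in the authors' deposited table (DESeq2 adjusted p = 0.280 and 0.334). CHARLIE16A at 0.64 ± 0.33 and TIGGER2B at 0.48 ± 0.24 were the other elements with an adjusted p on the higher side in the authors' deposited table (DESeq2 adjusted p = 0.355 and 0.325). On the lower side, CHARLIE21A stood at -0.65 ± 0.28 and the abundant MER5A at -0.47 ± 0.28 in the authors' deposited table (DESeq2 adjusted p = 0.249 and 0.426). MER106A (0.62 ± 0.31), CHARLIE9 (0.68 ± 0.33) and UCON99 (-0.13 ± 0.18) completed the 10 smallest p-values in the authors' deposited table, with mean counts of 5.03, 7.16 and 1.22 and no adjusted p. None of these differences passed the test, and for 8 of the 10 the interval of 1.96 standard errors reached past 1 or -1 on the log2 scale. Intervals and p-values need not match, since the deposited Wald statistic is not the shrunken value over its standard error. For CHARLIE9 the interval ran from 0.03 to 1.33, while the unadjusted DESeq2 p was 0.0826.

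As a class the elements lay close to 0. Their median log2 fold change in knockdown over LacZ control was 0.04 with quartiles at -0.09 and 0.16, beside a median of -0.02 over all repeats with quartiles at -0.17 and 0.13. Positive values were found for 114 of 197 DNA transposons (57.9%), beside 46.4% of all repeats, 39.6% of LINE, 43.1% of LTR and 55.3% of SINE elements. The tilt was seen at 100 or more mean counts too, where 21 of 32 DNA transposons (65.6%) and 184 of 481 other repeats (38.3%) were positive. These are descriptions, since elements share sequence and libraries, and no test was made of the tilt. For 174 of the 197 elements the 95% interval (1.96 standard errors) of the shrunken fold change lay within ±1 on the log2 scale, and for 23 it reached further. Within were 73 of the 77 elements with a mean count under 10 and 72 of 88 at 10 to 100. Shrinkage pulls weakly counted elements towards 0, so a narrow interval there says little about large changes.

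The medians of hAT and Tc/Mariner elements were both above 0 in knockdown over LacZ control. The median was 0.04 over 122 hAT elements (quartiles -0.11 and 0.15) and 0.08 over 58 Tc/Mariner elements (quartiles -0.09 and 0.22), a difference of -0.04. Among elements with a mean count of 50 or more the difference was -0.18, and neither was tested. By name, the 39 hAT elements called CHARLIE had a median of 0.01, the 48 hAT elements called MER 0.07, and the 27 Tc/Mariner elements called TIGGER 0.12. The families gave 0.04 for hAT-Charlie, 0.05 for hAT-Tip100, -0.02 for hAT-Blackjack, 0.10 for TcMar-Tigger and 0.00 for TcMar-Tc2. The largest share of positive values among these 5 families was 59.4%, in hAT-Tip100.

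**Figure D2:**
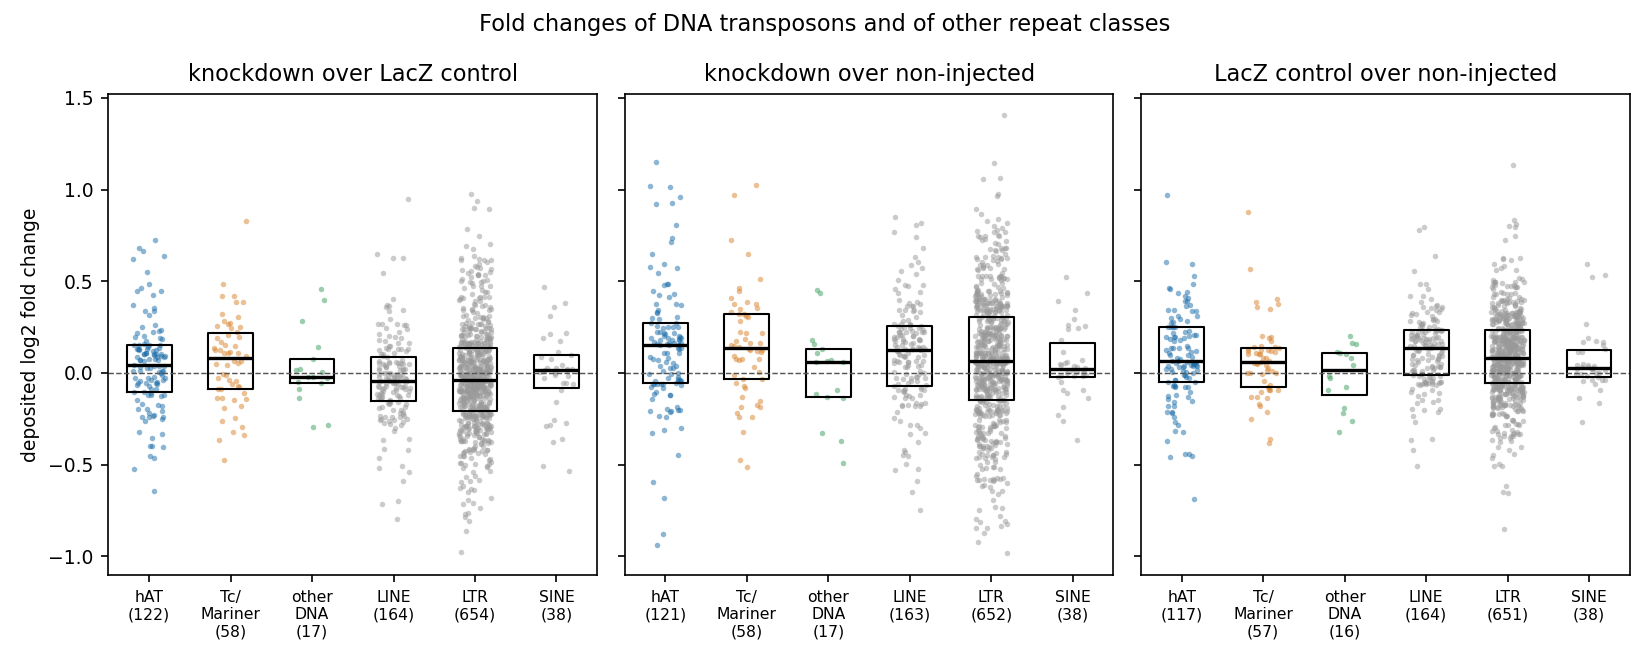
Deposited log2 fold change of each repeat element with a p-value in the 3 comparisons, for hAT, Tc/Mariner and other DNA transposons (coloured) and for LINE, LTR and SINE elements (grey). Boxes span the quartiles, the thick bar is the median and numbers in brackets are elements. The boxes of hAT and Tc/Mariner overlap in every panel, and all group medians lie between -0.04 and 0.15.

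Between knockdown and non-injected embryos 5 DNA transposons were called, 4 higher and 1 lower. This is 5 of the 119 elements with an adjusted p, beside 6.62% of all repeats called in the same table. Those called higher stood beside 3.60% of all repeats and the one lower beside 3.02%. The share of members called was 4.20%, below that of all repeats, but the order depends on the level. At a mean count of 10 to 100, where all 5 calls lie, 5.68% of 88 DNA transposons and 1.47% of 272 other repeats were called, and at 100 or more 0% of 31 and 10.3% of 467. The called elements were KANGA11A, CHARLIE1, CHARLIE16A and TIGGER2B, which rose, and CHARLIE21A, which fell. Of these calls 3 belong to hAT-Charlie, 1 to TcMar-Tc2 and 1 to TcMar-Tigger.

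The calls rest on the way the authors adjusted. Benjamini-Hochberg adjustment of the deposited p-values over all repeats left 0 calls, with adjusted p of 0.0705 for KANGA11A and 0.119 to 0.184 for the other 4. Adjustment over genes and repeats together left 1, KANGA11A (0.0393). At an unadjusted p under 0.05 there were 10 elements higher and 4 lower in knockdown, 7.14% of 196 members, beside 11.5% of all repeats (6.65% higher and 4.81% lower).

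KANGA11A, a Tc2-type element, rose by 1.03 ± 0.33 in knockdown over non-injected in the authors' deposited table (DESeq2 adjusted p = 0.0155). It stood at -0.04 ± 0.29 in knockdown over LacZ control and at 0.88 ± 0.30 in LacZ control over non-injected in the authors' deposited table (DESeq2 adjusted p = 0.995 and 0.224). Its mean counts were 54.6 in the table of knockdown and LacZ control, 40.8 in that of knockdown and non-injected and 44.4 in that of LacZ control and non-injected. The deposited values are thus close to each other in both comparisons with non-injected embryos, of which only that of the knockdown was called, and the difference between them was not tested.

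CHARLIE1, a hAT-Charlie element, rose by 1.02 ± 0.36 in knockdown over non-injected in the authors' deposited table (DESeq2 adjusted p = 0.0279). The other comparisons gave 0.34 ± 0.29 for knockdown over LacZ control and 0.61 ± 0.30 for LacZ control over non-injected in the authors' deposited table, neither of them called (DESeq2 adjusted p = 0.662 and 0.460). Its named relatives had smaller values in knockdown over non-injected: CHARLIE1A stood at 0.38 and CHARLIE1B at 0.00 in the authors' deposited table, neither called, with higher mean counts than CHARLIE1.

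CHARLIE16A rose by 1.15 ± 0.42 in knockdown over non-injected in the authors' deposited table (DESeq2 adjusted p = 0.0367). This was the largest log2 fold change of any DNA transposon in that table, and it rests on a mean count of 11.4. The values were 0.64 ± 0.33 for knockdown over LacZ control and 0.31 ± 0.32 for LacZ control over non-injected in the authors' deposited table, neither called (DESeq2 adjusted p = 0.355 and 0.822). TIGGER2B rose by 0.65 ± 0.25 in knockdown over non-injected in the authors' deposited table (DESeq2 adjusted p = 0.0475), with 0.48 ± 0.24 for knockdown over LacZ control and 0.12 ± 0.28 for LacZ control over non-injected.

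CHARLIE21A was the element that fell, by 0.94 ± 0.34 in knockdown over non-injected in the authors' deposited table (DESeq2 adjusted p = 0.0291). It stood at -0.65 ± 0.28 in knockdown over LacZ control and at -0.24 ± 0.27 in LacZ control over non-injected in the authors' deposited table (DESeq2 adjusted p = 0.249 and 0.837). CHARLIE16A and CHARLIE21A, both of the hAT-Charlie family, thus had opposite signs in each comparison. The comparisons share groups of libraries, so agreement of their signs is no repeat of a result.

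**Figure D3:**
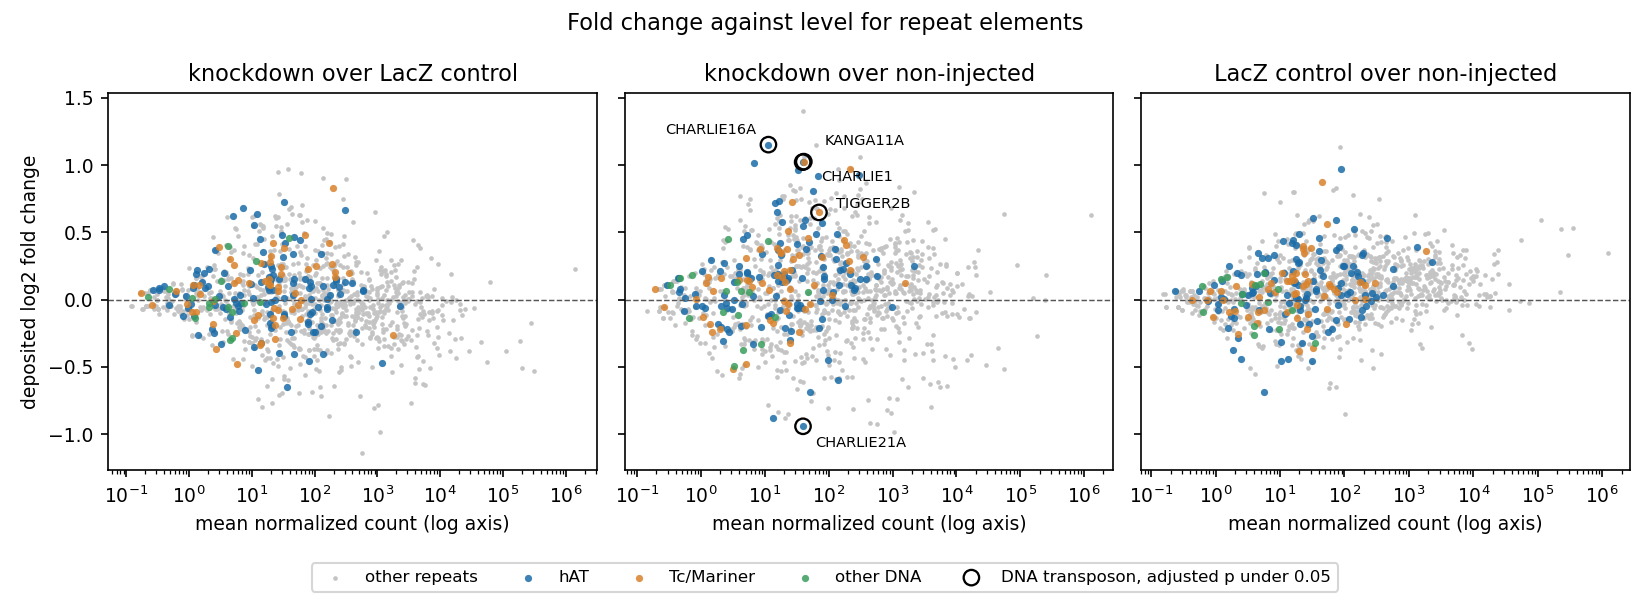
Deposited log2 fold change against mean normalized count (log axis) for every repeat element with a p-value, one panel per comparison. DNA transposons are coloured by superfamily over the other repeats in grey, and circles mark those with a deposited adjusted p under 0.05. The 5 circled elements are all in knockdown over non-injected, at mean counts of 11.4 to 70.4.

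Just outside the threshold in knockdown over non-injected stood several elements that share the higher side. They were ORSL-2B at 0.96 ± 0.39, MER45R at 0.92 ± 0.39, TIGGER19B at 0.97 ± 0.43, MER5C at 0.81 ± 0.36 and ARTHUR1 at 0.93 ± 0.41 in the authors' deposited table (DESeq2 adjusted p = 0.0699, 0.0730, 0.0752, 0.0910 and 0.0980). MER58C was on the lower side at -0.59 ± 0.26 in the authors' deposited table (DESeq2 adjusted p = 0.0867). At a threshold of 0.1 the deposited adjusted p-values gave 11 elements, 9 higher and 2 lower, beside 10.9% of all repeats (6.27% higher and 4.65% lower).

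Named relatives had different values, and the differences between them were not tested. TIGGER19B stood at 0.97 in knockdown over non-injected and TIGGER19A at 0.46 in the authors' deposited table, while in knockdown over LacZ control they stood at 0.83 and -0.14. Of the MER5 elements, MER5C stood at 0.81, MER5B at 0.30, MER5A1 at 0.19 and MER5A at -0.05 in knockdown over non-injected in the authors' deposited table. MER58B (0.25) and MER58C (-0.59) had opposite signs there in the authors' deposited table, and so did MER45R (0.92) and MER45B (-0.45). How reads matching several related elements were assigned was not given in the sources used here, so values of close relatives are uncertain.

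**Figure D4:**
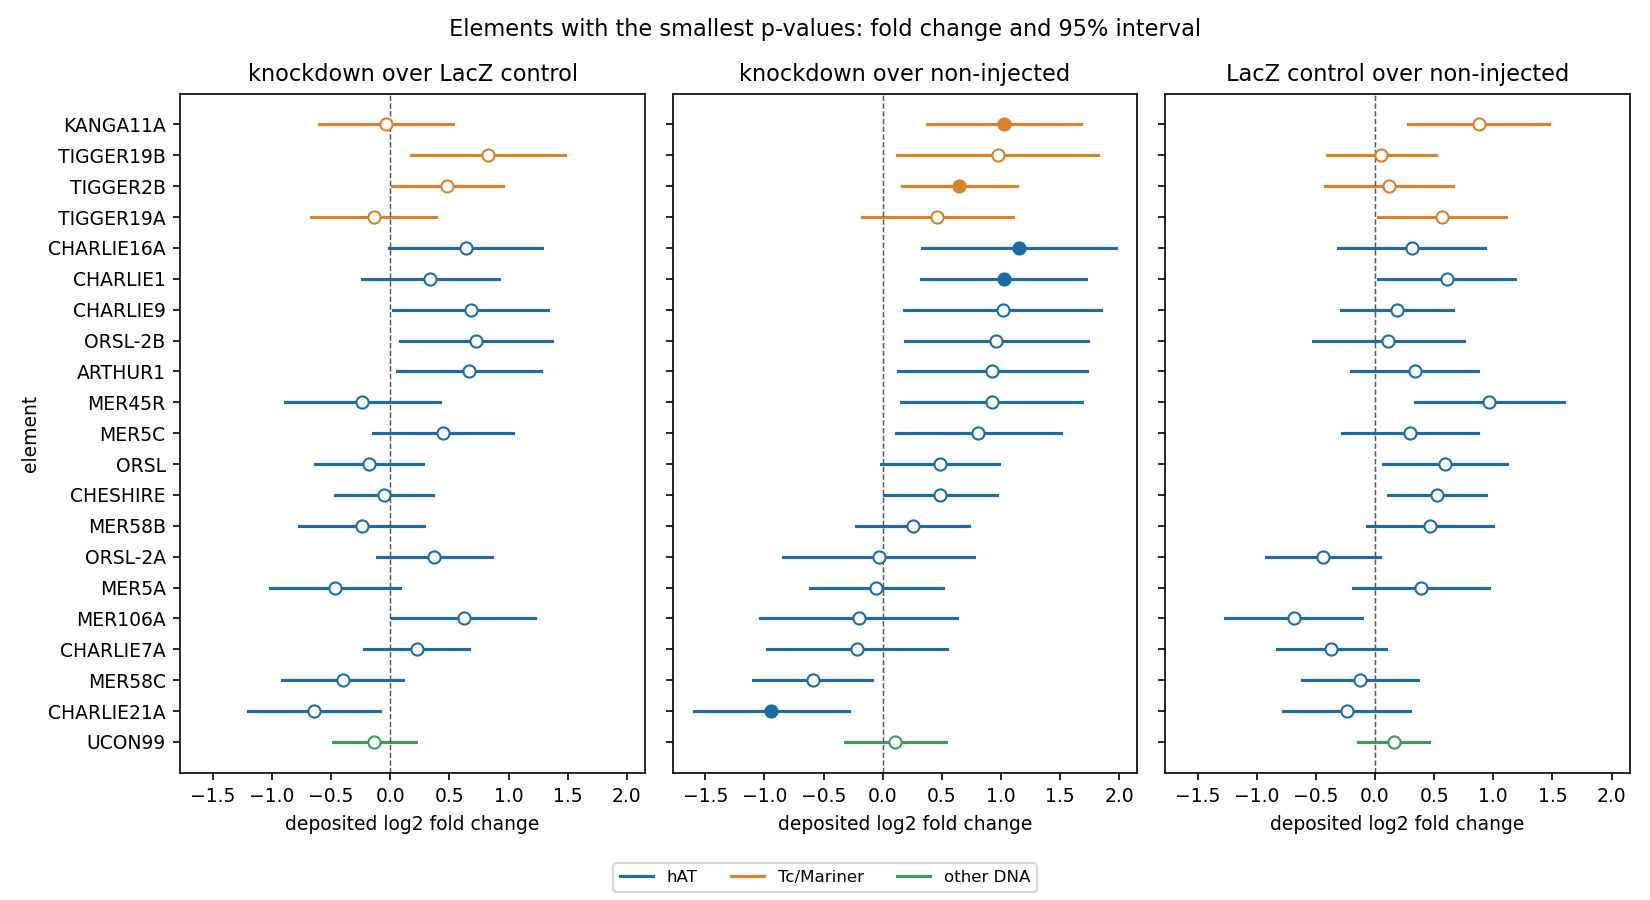
Deposited log2 fold change with an interval of 1.96 standard errors for the elements among the 10 smallest p-values of any comparison, in the same row in all panels and coloured by superfamily. Filled points have a deposited adjusted p under 0.05, open points do not or have none. Filled points occur in knockdown over non-injected only, 4 to the right of 0 and CHARLIE21A to the left.

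As a class the median log2 fold change in knockdown over non-injected was 0.13 (quartiles -0.06 and 0.30), beside 0.08 over all repeats (quartiles -0.11 and 0.28). Positive values were found for 131 of 196 DNA transposons (66.8%), beside 61.2% of all repeats. Among elements with a mean count of 100 or more, 28 of 31 DNA transposons (90.3%) and 290 of 467 other repeats (62.1%) were positive, with medians of 0.22 and 0.08. This tilt was not tested, and the elements share sequence and libraries. LINE elements had a median of 0.13 and LTR elements of 0.06. Relative to the median of all repeats the DNA transposons stood at 0.06. For 130 of the 196 elements the 95% interval lay within ±1 on the log2 scale. Among them were 53 of the 77 with a mean count under 10, where a shrunken interval says little.

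The superfamilies again had similar medians in knockdown over non-injected, 0.15 over 121 hAT elements and 0.14 over 58 Tc/Mariner elements. Their difference of 0.01 turned to -0.04 among elements with a mean count of 10 or more and to -0.12 at 50 or more, and no order of the superfamilies is read from it. Elements called TIGGER had a median of 0.18 with 21 of 27 positive, hAT elements called CHARLIE 0.15 with 23 of 39 positive, and hAT elements called MER 0.11 with 29 of 47 positive. By family, 4 of 67 hAT-Charlie elements were higher and 4 lower at an unadjusted p under 0.05, 3 of 31 hAT-Tip100 higher and 0 lower, 2 of 44 TcMar-Tigger higher and 0 lower and 1 of 8 TcMar-Tc2 higher and 0 lower. These are 11.9%, 9.68%, 4.55% and 12.5% of the families, beside 11.5% of all repeats. The 4 ARTHUR elements of hAT-Tip100 were all positive, with a median of 0.46 and values from 0.19 to 0.93. None of the 3 with an adjusted p was called, beside 6.62% of all repeats. In knockdown over LacZ control the ARTHUR elements ran from -0.17 to 0.66. In LacZ control over non-injected all 4 were positive as well, from 0.14 to 0.41.

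Between LacZ control and non-injected embryos, which differ by the injection of dsLacz, no DNA transposon was called. DESeq2 called 0 of 139 elements with an adjusted p, beside 0% of all 943 repeats with one. At an unadjusted p under 0.05 there were 6 elements higher and 1 lower in LacZ control, 3.68% of 190 members, beside 3.34% of all repeats (2.55% higher and 0.79% lower).

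The smallest p-values were those of MER45R, a hAT-Tip100 element, at 0.97 ± 0.32 and of KANGA11A at 0.88 ± 0.30 in the authors' deposited table (DESeq2 adjusted p = 0.167 and 0.224). CHESHIRE, a hAT-Charlie element, stood at 0.53 ± 0.21, ORSL at 0.59 ± 0.27 and TIGGER19A at 0.57 ± 0.28 in the authors' deposited table (DESeq2 adjusted p = 0.317, 0.416 and 0.460). MER106A was the one element on the lower side with an unadjusted p under 0.05, at -0.69 ± 0.29 in the authors' deposited table (DESeq2 adjusted p = 0.328). MER58B stood at 0.46 ± 0.27 in the authors' deposited table, with a DESeq2 adjusted p of 0.568. ORSL-2A stood at -0.44 ± 0.24 and CHARLIE7A at -0.37 ± 0.23 in the authors' deposited table, at mean counts of 2.47 and 1.89 and with no adjusted p. None of these passed the test.

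The class median in LacZ control over non-injected was 0.06 (quartiles -0.07 and 0.20), beside 0.08 over all repeats. Positive values were found for 124 of 190 DNA transposons (65.3%), beside 66.9% of all repeats. At a mean count of 100 or more they were found for 24 of 31 DNA transposons (77.4%) and 377 of 482 other repeats (78.2%). The medians there were 0.11 and 0.14. hAT and Tc/Mariner both had a median of 0.06, over 117 and 57 elements. For 174 of the 190 elements the 95% interval lay within ±1 on the log2 scale. Among them were 70 of the 71 with a mean count under 10, where a shrunken interval says little.

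None of the 6 elements with the highest mean counts was called in any comparison. RCHARR1 stood at -0.04 ± 0.20 in knockdown over LacZ control, 0.25 ± 0.20 in knockdown over non-injected and 0.28 ± 0.21 in LacZ control over non-injected in the authors' deposited table. MER2 gave -0.26 ± 0.24, 0.13 ± 0.22 and 0.36 ± 0.26 in the same order in the authors' deposited table. MER20, with the smallest standard errors of the 6, had values of 0.07 ± 0.16, 0.18 ± 0.17 and 0.10 ± 0.17 in the authors' deposited table. MER5A had values of -0.47 ± 0.28, -0.05 ± 0.29 and 0.39 ± 0.29, the widest spread of the 6, in the authors' deposited table. MER5B stood at 0.07 ± 0.20, 0.30 ± 0.21 and 0.23 ± 0.19 and MER58B at -0.24 ± 0.27, 0.25 ± 0.24 and 0.46 ± 0.27 in the same order, again from the authors' deposited table. Among elements with fewer counts, OLDHAT1 had values of 0.09 ± 0.17, 0.07 ± 0.19 and -0.01 ± 0.18 in the authors' deposited table. The interval of 1.96 standard errors for MER20 in knockdown over LacZ control runs from -0.24 to 0.38. MMAR1 stood at 0.42 ± 0.28, 0.44 ± 0.32 and -0.00 ± 0.23 and LOOPER at 0.46 ± 0.32, 0.06 ± 0.38 and -0.32 ± 0.33 in the authors' deposited table, not called either.

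Levels of single groups can be worked out from the mean counts if each table averages the libraries of its own groups, 6, 6 and 4 in number. Put on a common scale by their median ratio, the 3 mean counts then give 1 value for each group. For 844 of 844 repeats with a mean count of 10 or more in all tables the values came out above 0. For DNA transposons among them, the log2 ratio of knockdown over LacZ control so obtained had the sign of the deposited fold change in 113 of 116 and differed from it by a median of 0.09. The sign was the same in 107 of 116 for knockdown over non-injected and in 96 of 116 for LacZ control over non-injected, with median differences of 0.10 each. The direction of the deposited fold changes was itself set from these mean counts. Agreement of sign therefore repeats that check and gives no separate support to the implied values. Some elements named below differed more in knockdown over non-injected. CHARLIE16A had an implied log2 ratio of 1.98 against 1.15 in the authors' deposited table, and CHARLIE21A -1.36 against -0.94. TIGGER2B was closer, at 0.63 against 0.65. These group means carry no error, since no value of a single library enters.

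CHARLIE21A had an implied mean count of 25.2 in knockdown, against 46.7 in LacZ control and 64.4 in non-injected embryos. CHARLIE16A had 16.8 in knockdown, 7.59 in LacZ control and 4.25 in non-injected embryos. The LacZ control thus lay between the other groups for both elements, which run in opposite directions. CHARLIE1 was ordered like CHARLIE16A, at 52.5 in knockdown, 37.0 in LacZ control and 22.1 in non-injected embryos. These elements were called in knockdown over non-injected, so a wide gap between those groups follows from the choice. None of them was called in either comparison with LacZ control, so the order is a description.

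KANGA11A had an implied mean count of 53.8 in knockdown and 55.4 in LacZ control, against 24.5 in non-injected embryos. MER45R was placed alike, at 89.0 in knockdown and 114 in LacZ control, against 40.2 in non-injected embryos. For both elements the injected groups lay above the non-injected one. KANGA11A had the smallest p-value in knockdown over non-injected and MER45R in LacZ control over non-injected. A low non-injected value thus follows from the choice, and MER45R was called in no comparison. TIGGER2B had 84.7 in knockdown, 57.9 in LacZ control and 54.7 in non-injected embryos.

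TIGGER19B, chosen for the smallest p-value in knockdown over LacZ control, was called in no comparison. It had an implied mean count of 318 in knockdown, 79.3 in LacZ control and 69.5 in non-injected embryos. Its implied log2 ratio of knockdown over LacZ control was 2.00, whereas the deposited shrunken value was 0.83 ± 0.33 in the authors' deposited table. Whether all knockdown libraries or a few carry that level was not tested, because values of single libraries were not used here.

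**Figure D5:**
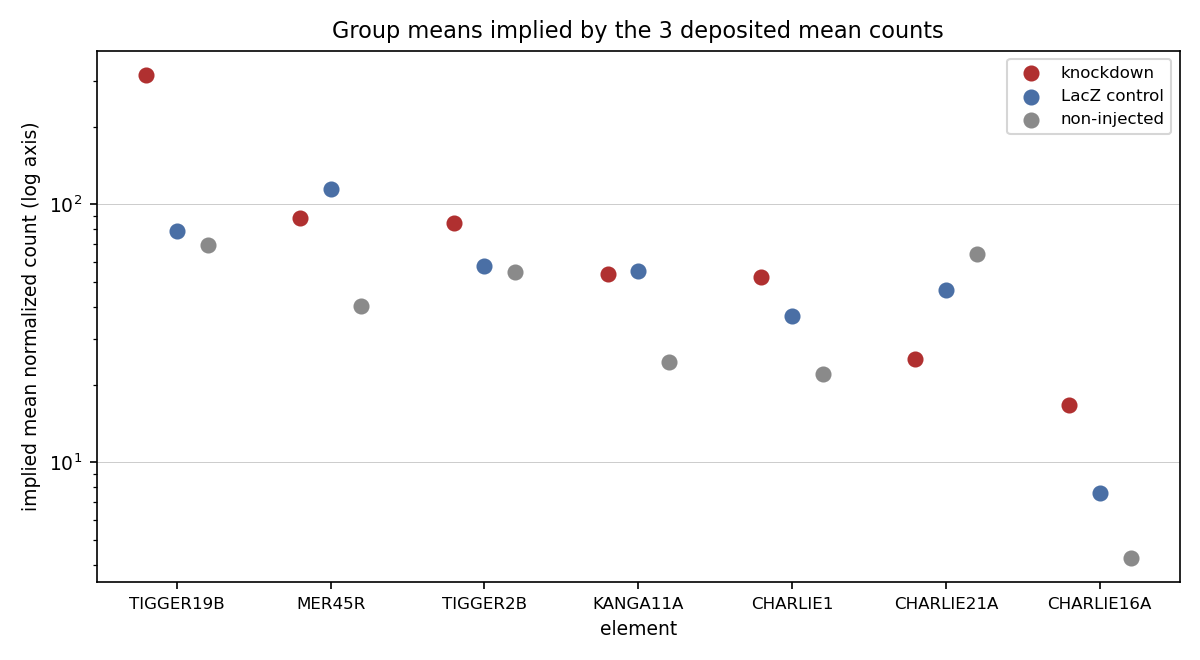
Mean normalized count of each group (log axis) implied by the 3 deposited mean counts, for the 5 called DNA transposons and for the elements with the smallest p-value in each comparison. Points are single values without error. TIGGER19B is at 318 in knockdown, 79.3 in LacZ control and 69.5 in non-injected embryos, and CHARLIE21A is lowest in knockdown.

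Genes related to DNA transposases gave no calls. The genome keeps several genes that descend from a transposase or share its DNA-binding domain. The list holds 27: pogo-like genes such as Cenpb, hAT-like genes, PiggyBac-like and Harbinger-like genes, the recombinase genes Rag1 and Rag2, and genes with the THAP domain of the P element transposase. Of these 25 had a p-value and 2, Rag2 and Zbed6, were listed at a mean count of 0. The exons of Zbed6 overlap those of Zc3h11a and Gm38394 on the same strand, so its count is uncertain.

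DESeq2 called 0 of 20 listed genes with an adjusted p in knockdown over LacZ control, beside 0.899% of all genes, and 1 was lower at an unadjusted p under 0.05, beside 8.13% of all genes in either direction. It called 0 of 19 in knockdown over non-injected, beside 15.2% of all genes, with 1 higher and 1 lower at an unadjusted p under 0.05, beside 14.8% of all genes. In LacZ control over non-injected it called 0 of 25, beside 0.792% of all genes, with 1 lower at an unadjusted p under 0.05, beside 6.55% of all genes. The median log2 fold changes of the listed genes with a p-value were 0.01, 0.01 and -0.13 in that order, beside 0.02, 0.03 and 0.00 over all genes.

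Zbed3, a hAT-like gene known from oocytes and early embryos (ENSMUSG00000041995.7; GRCm38 chromosome 13, 95323612 to 95337841), was by far the most abundant of them, with a mean count of 33422. It stood at 0.54 ± 0.30 in knockdown over LacZ control and 0.70 ± 0.31 in knockdown over non-injected in the authors' deposited table (DESeq2 adjusted p = 0.401 and 0.112). Thap1, a transcription factor gene with a THAP domain whose exons overlap Gm45692 on the same strand, had log2 fold changes of -0.44 ± 0.20 and -0.42 ± 0.21 in the same comparisons in the authors' deposited table (DESeq2 adjusted p = 0.278 and 0.181). Pgbd5, derived from a PiggyBac transposase, stood at 0.60 ± 0.31 in knockdown over LacZ control in the authors' deposited table (DESeq2 adjusted p = 0.357). In LacZ control over non-injected the smallest p-values were those of the pogo-like Tigd3 (-0.74 ± 0.39), the Harbinger-like Harbi1 (0.63 ± 0.36) and Tigd2 (0.59 ± 0.35) in the authors' deposited table (DESeq2 adjusted p = 0.430, 0.772 and 0.797). Tigd3 stood at -0.41 ± 0.39 in knockdown over non-injected in the authors' deposited table, with a mean count of 9.50 and no adjusted p.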

How the data were processed

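Polyadenylated RNA of 2-cell embryos was read with Smart-seq2, per the labels' protocols. Per the submitters' processing notes, the tools were STAR 2.5.2b, SAMtools, HTSeq 0.9.1 and DESeq2 1.18.1, on GRCm38.p5. RUVSeq and shrinkage are known from the table names only, and the assignment of reads to repeats was not given in the sources used here. Headers of the deposited tables name a mean normalized count (a signal), a log2 fold change and the error of that value, a Wald score, and p-values before and after adjustment. The files have 0 columns of single libraries, so depth is unknown and nothing was refitted. Shrinkage pulls weakly counted elements towards 0.

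Row names were split at colons, and rows of class DNA were kept. Medians, counts and Benjamini-Hochberg adjustments were computed with Python 3.11.15, pandas 2.3.3 and numpy 2.4.6. The adjustment, and the sign check for knockdown over LacZ control, were tested on simulated data. A call is a deposited adjusted p under 0.05. Named elements are the 2 example elements CHARLIE21A and CHARLIE16A, every called one, the 10 smallest p-values per comparison, the 5 highest mean counts in hAT and in Tc/Mariner, and the first of each smaller family by count. Named genes are the 3 smallest p-values per comparison. Gene symbols, positions and exon overlaps come from GENCODE vM21. The elements and lists were chosen with earlier results of these data known. The sign check, the implied group means, the alternative without uncertain families and both alternatives for the listed genes were chosen after seeing the data.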

Additional observations from a re-analysis of the deposited data

How the results depend on the processing

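The count of DNA transposons called in knockdown over non-injected was 5 as deposited, 0 with adjustment over all repeats, 0 over repeats with a mean count of 10 or more, 0 over those with 50 or more, 1 over all genes and repeats, and 11 at a threshold of 0.1. The cause of these shifts lies in the set of p-values adjusted together and in the threshold, as constructed. KANGA11A, CHARLIE1, CHARLIE21A and CHARLIE16A had mean counts of 40.8, 39.1, 39.6 and 11.4. They were left out of the set with 50 or more, so their loss there was fixed by the filter. TIGGER2B was kept in that set, with a Benjamini-Hochberg adjusted p of 0.108. In the other comparisons the count was 0 under all 6 alternatives each. The smallest DESeq2 adjusted p was 0.187 in knockdown over LacZ control (TIGGER19B) and 0.167 in LacZ control over non-injected (MER45R). A threshold of 0.1 could therefore give no call there. Benjamini-Hochberg adjustment over the other sets gave these 2 elements at least 0.250 and 0.181. Of the class medians, that of knockdown over LacZ control was 0.043 as reported, 0.074 at mean counts of 10 or more and 0.067 at 50 or more. That of knockdown over non-injected was 0.13, and 0.056 relative to the median of all repeats. That of LacZ control over non-injected was 0.062, 0.11 at both count minimums, and -0.014 relative to the median of all repeats. Their other alternatives stayed within 1.5 times. The hAT minus Tc/Mariner difference in knockdown over LacZ control was -0.038 as reported, -0.18 at mean counts of 50 or more and -0.064 for hAT-Charlie against TcMar-Tigger. In knockdown over non-injected it was 0.014, and -0.042 at 10 or more, -0.12 at 50 or more, -0.024 as weighted means and -0.0014 for hAT-Charlie against TcMar-Tigger. In LacZ control over non-injected it was 0.0026, and -0.013, 0.025, 0.029 and -0.023 in that order. The cause of these shifts in medians and differences was not tested. The count of called transposase-related genes was 0 under both alternatives in each comparison. Leaving out single libraries was not run. No paired analysis was possible because the tables hold no values of single libraries.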

Other observations

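Outside the class DNA, the same tables hold 24 elements marked as uncertain DNA transposons in knockdown over LacZ control, with a median mean count of 1.82. DESeq2 called 0 of the 2 with an adjusted p, beside 0.35% of all repeats. With so few tested, this says nothing about these elements. At an unadjusted p under 0.05 there were 0, beside 6.69% of all repeats. Helitrons, which move by a rolling circle rather than by cut and paste, are listed as a class of their own. The most abundant of them, HELITRON3NA_MAM, had a mean count of 234 and stood at -0.03 ± 0.19 in knockdown over LacZ control in the authors' deposited table (DESeq2 adjusted p = 0.961). It stood at 0.04 ± 0.18 in knockdown over non-injected and 0.08 ± 0.21 in LacZ control over non-injected in the authors' deposited table (DESeq2 adjusted p = 0.904 and 0.948).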
